A study of Zea mays with 12 samples.

Results

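One α-tubulin gene, tua6, and 2 β-tubulin genes, tub4 and tub6, were followed in leaves of 2 maize inbred lines grown in acid or limed soil. All probe sets whose platform symbol, RefSeq symbol or RefSeq synonym was one of these names were taken, which gave 6 of the 17621 probe sets tested, or 3 of the 1108 genes with a single platform symbol. One probe set measured tua6 (LOC542582), 1 measured tub4 (LOC542417) and 4 measured tub6 (LOC542239). These genes were picked from earlier results of the same arrays, among them the response of Cat100-6 to acid soil, so every comparison that uses Cat100-6 arrays is given for them as a description with no p-value. The response of S1587-17 to acid soil was tested.

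Microtubules are hollow filaments built from dimers of α- and β-tubulin, and γ-tubulin nucleates new filaments. In plants they form the spindle and phragmoplast of dividing cells, and in expanding cells the cortical array that guides where cellulose is laid down in the wall. Each tubulin is encoded by a small gene family whose members are near-identical in protein sequence and are expressed to different degrees in different tissues.

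Both lines are tropical inbreds, of which the labels call Cat100-6 tolerant and S1587-17 sensitive to aluminium, and the labels name no transgene in either. Seedlings of similar root length grew for 3 days at 26 °C, 20 seeds to a bag, in a red Brazilian latosol. The acid soil had a pH of 4.1 and received fertilizer and calcium chloride, whereas the control soil was limed with calcium hydroxide to pH 5.5, at which aluminium was undetectable, and received the same fertilizer. The 4 combinations of line and soil had 3 arrays each. The platform was the GeneChip Maize Genome Array from Affymetrix, which reads each transcript with several short oligonucleotide probes, together called a probe set. Values are log2 RMA expression, so that a difference of 1 is a doubling. The labels number the arrays as biological replicates without saying whether they came from separate bags, so p-values measure only the spread between these samples. A description shared by all samples speaks of root leaves, and the source labels of Cat100-6 are spelled Ca100-6. The 14 probe sets of leaf markers, photosynthesis genes, had a median at percentile 99.3 of all tested probe sets, whereas 16 probe sets of seed markers had a median at percentile 10.9. The only root marker found, zrp4, lay at percentile 38.6.

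One array stood apart. Across probe sets, replicate 3 of S1587-17 in control soil had a correlation of 0.963 to 0.967 with its group-mates, compared with 0.985 to 0.997 within the other 3 groups. The lowest within those groups, 0.985 and 0.991, were both of replicate 2 of Cat100-6 in acid soil. Array medians were 7.13 to 7.27 on the log2 scale. The 3′ minus 5′ signal of 5 control genes, which reflects RNA integrity and labelling, was 0.52 to 0.74 on the Cat100-6 arrays and 0.03 to 0.36 on the S1587-17 arrays, so it differed with line. Values without the apart array, replicate 3 of S1587-17 in control soil, are given beside the results whose calls or direction it decides, and the part of the 3′ to 5′ difference was not tested. Leaves were profiled in bulk, so that fewer cells of a type and less RNA per cell cannot be told apart.

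The 4 tub6 probe sets share a target and are not independent measurements. They are called here the brightest, the dimmest, and the a_at and x_at probe sets, and their full names stand on the plots. Affymetrix uses the suffix a_at for probes that match several transcripts of the same gene, and x_at for sets of which some probes match other sequences. Signal from other, near-identical tubulin genes in any of these probe sets was not tested.

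For tua6, an α-tubulin, the log2 expression was 10.92, 10.84 and 11.16 in Cat100-6 in control soil and 12.19, 12.08 and 12.09 in acid soil. It was 12.16, 12.13 and 11.63 in S1587-17 in control soil and 11.94, 11.90 and 11.85 in acid soil. The Cat100-6 control arrays were the lowest of the 12 and did not overlap any other group, while the remaining 3 groups lay close together. The mean of Cat100-6 was 10.97 ± 0.16 in control soil and 12.12 ± 0.06 in acid soil (SD, n = 3), a log2 difference of 1.15 ± 0.14 (SE), or 2.22-fold. The mean of S1587-17 was 11.97 ± 0.29 in control soil and 11.90 ± 0.04 in acid soil.

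For tub4, a β-tubulin, the Cat100-6 values were 10.39, 10.31 and 10.60 in control soil and 11.91, 11.75 and 11.69 in acid soil. The S1587-17 values were 12.23, 12.03 and 12.02 in control soil and 12.16, 12.04 and 11.94 in acid soil. Both S1587-17 groups were above both Cat100-6 groups, and the control arrays of Cat100-6 were again the lowest. Within Cat100-6 the mean was 10.43 ± 0.15 in control soil and 11.78 ± 0.12 in acid soil (SD, n = 3), a log2 difference of 1.35 ± 0.11 (SE), or 2.55-fold. Of the 3 genes, tub4 alone had its highest group means in S1587-17, at 12.09 ± 0.12 in control soil and 12.05 ± 0.11 in acid soil.

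For tub6, a second β-tubulin, the brightest probe set read 9.44, 9.43 and 9.65 in Cat100-6 in control soil and 10.89, 10.71 and 10.85 in acid soil. In S1587-17 it read 10.58, 10.70 and 10.08 in control soil and 10.56, 10.65 and 10.63 in acid soil. The acid soil arrays of Cat100-6 were the highest of the 12 and its control arrays the lowest. The mean of Cat100-6 was 9.51 ± 0.12 in control soil and 10.82 ± 0.10 in acid soil (SD, n = 3), a log2 difference of 1.31 ± 0.15 (SE), or 2.48-fold.

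The other 3 tub6 probe sets gave the same order of groups. The a_at probe set read 9.18, 8.98 and 9.29 in Cat100-6 in control soil, 10.76, 10.93 and 10.58 in acid soil, and 10.45, 10.65 and 9.31 followed by 10.28, 10.35 and 10.37 in the control and acid soil of S1587-17. Here replicate 3 of the S1587-17 control group was near the level of Cat100-6 in control soil, whose mean was 9.15 ± 0.16. The Cat100-6 difference was 1.61 ± 0.27 on the log2 scale, or 3.04-fold. At the x_at probe set the difference was 1.49 ± 0.26 and at the dimmest, with a mean of 7.34 over all arrays, it was 1.48 ± 0.25 (SE).

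**Figure D1:**
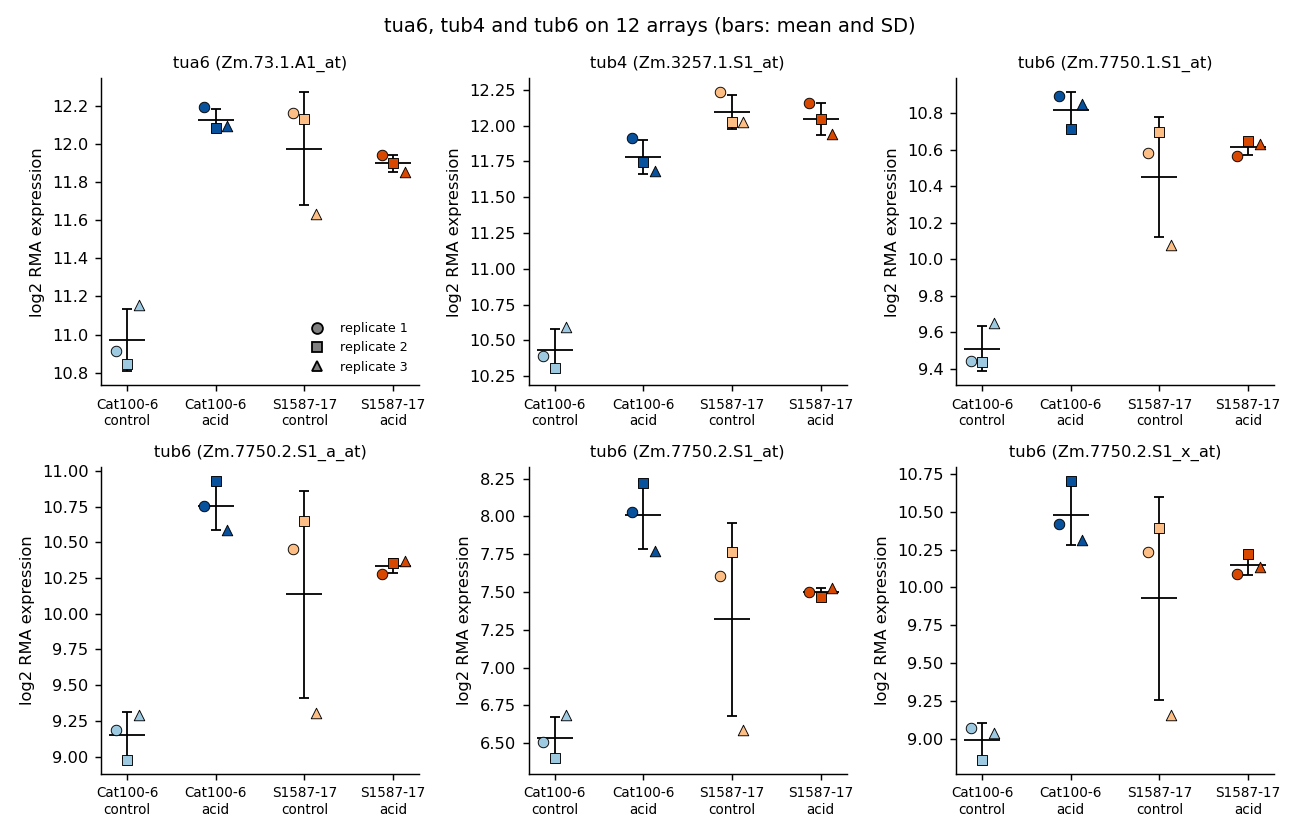
Log2 RMA expression of the 6 probe sets of tua6, tub4 and tub6 by line and soil, with 1 point per array, its shape giving the replicate number, and bars for the mean and SD of 3 arrays; vertical axes differ between panels and do not start at 0. Cat100-6 in control soil was the lowest group mean for every probe set, and replicate 3 of S1587-17 in control soil (light triangle) lay below its group-mates in tua6 and tub6 but not clearly in tub4.

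The first question was how leaves of the tolerant line responded to acid soil. In Cat100-6 all 6 probe sets were higher in acid soil, by 1.15 to 1.61 on the log2 scale with a median of 1.41, and all 6 passed the threshold of limma's adjusted p of 0.05. Of all tested probe sets 55.0% passed in that comparison, made up of 23.5% with higher and 31.5% with lower values in acid soil, and the median difference was -0.14. The arrays of both soils did not overlap for any of the 6, which held for 68.6% of all probe sets, and 27.9% were apart with higher values in acid soil. Since this comparison was among those that led to the genes, nothing is read from these counts. The spiked hybridization controls were lower on the acid soil arrays of this line, at 9.71 ± 0.31 compared with 10.21 ± 0.21 (SD, n = 3). With every array set to the same mean of these controls, the 6 differences were 1.65 to 2.10 and the median of all probe sets was 0.36.

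The same question in the sensitive line was tested, since its arrays were not those of the comparison known to have led to tub4 and tub6. Which comparison led to tua6 is not recorded. Other earlier comparisons may have used S1587-17 arrays, so it is not established that this test is independent of the choice of genes. None of the 6 probe sets passed in S1587-17, where the log2 differences were -0.08 for tua6, -0.05 for tub4 and 0.16 to 0.22 for tub6. Their adjusted p-values in limma were 0.874 to 0.926, and no unadjusted p was below 0.05. The share of all probe sets that passed here was 0%, while 3.48% had an unadjusted p below 0.05. The 95% intervals were -0.38 to 0.23 for tua6 and -0.29 to 0.20 for tub4, and the widest, that of the a_at probe set of tub6, was -0.40 to 0.80. Arrays of both soils overlapped for all 6 probe sets, and those of 7.66% of all probe sets did not.

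The apart array touched the tub6 values most. Replicate 3 of the S1587-17 control group was below the mean of replicates 1 and 2 by 1.24, 1.16 and 1.10 on the log2 scale for the a_at, x_at and dimmest tub6 probe sets, by 0.56 for the brightest, by 0.51 for tua6 and by 0.11 for tub4. Without it, the soil difference in S1587-17 was -0.25 ± 0.11 for tua6, -0.08 ± 0.12 for tub4 and -0.22 to -0.03 for the tub6 probe sets, so that tub6 turned from slightly higher to slightly lower in acid soil (SE, limma adjusted p of 1.00 for each). On the same array the median of 26 probe sets of DNA replication and cell division genes was 5.005, compared with 6.62 and 6.75 on its group-mates. Its summed signal for the leaf markers was 126779, compared with 85336 and 94581. The part of these cell types in the tub6 values was not tested.

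**Figure D2:**
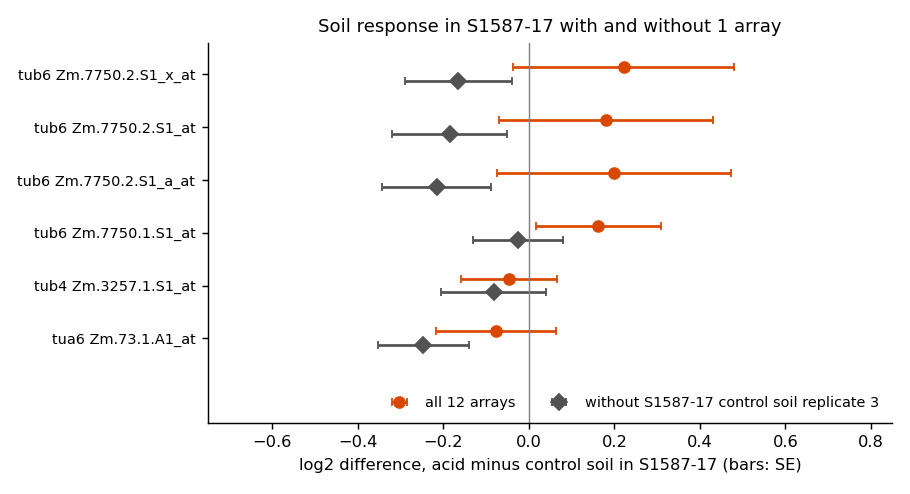
Log2 difference between acid and control soil in S1587-17 for the 6 probe sets, with SE, from all 12 arrays (circles) and without replicate 3 of the control group (diamonds). The 4 tub6 probe sets moved from 0.16 to 0.22 down to -0.22 to -0.03, whereas tub4 moved from -0.05 to -0.08.

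The lines were also compared within each soil, as a description. In control soil all 6 probe sets were higher in S1587-17 than in Cat100-6, by 1.66 ± 0.11 for tub4 (3.16-fold), 1.00 ± 0.14 for tua6 (2.00-fold) and 0.79 to 0.98 for tub6 (SE, log2 scale). The 6 probe sets were past the threshold, as were 51.5% of all probe sets in either direction and 23.2% with higher values in S1587-17; the comparison uses Cat100-6 arrays that led to the genes, so nothing is read from the count. The arrays were apart for 5 of the 6, compared with 23.9% of all probe sets apart and higher in S1587-17, and the exception was the dimmest tub6 probe set, through replicate 3. Without that array the differences were 1.17 for tua6, 1.70 for tub4 and 1.13 to 1.40 for tub6.

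In acid soil the lines lay close together and the genes went different ways. The level of tub4 was 0.27 ± 0.11 higher in S1587-17 on the log2 scale and its arrays did not overlap, although the nearest pair was only 0.02 apart. That of tua6 was 0.22 ± 0.14 lower in S1587-17 and that of tub6 was 0.21 to 0.51 lower, also with no overlap of arrays. None of the 6 passed in this comparison, in which 24.0% of all probe sets passed. The arrays were apart for 45.5% of all probe sets, 22.8% with higher and 22.7% with lower values in S1587-17. The direction for tub4 depended on the scaling, being -0.19 with the spiked controls set equal. Without S1587-17 control soil replicate 3, which enters through the shared estimate of the spread, 3 of the 6 were past the threshold as lower in S1587-17, as were 17.7% of all probe sets in that fit and 13.3% with all arrays. This comparison uses Cat100-6 arrays too, so nothing is read from these counts.

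**Figure D3:**
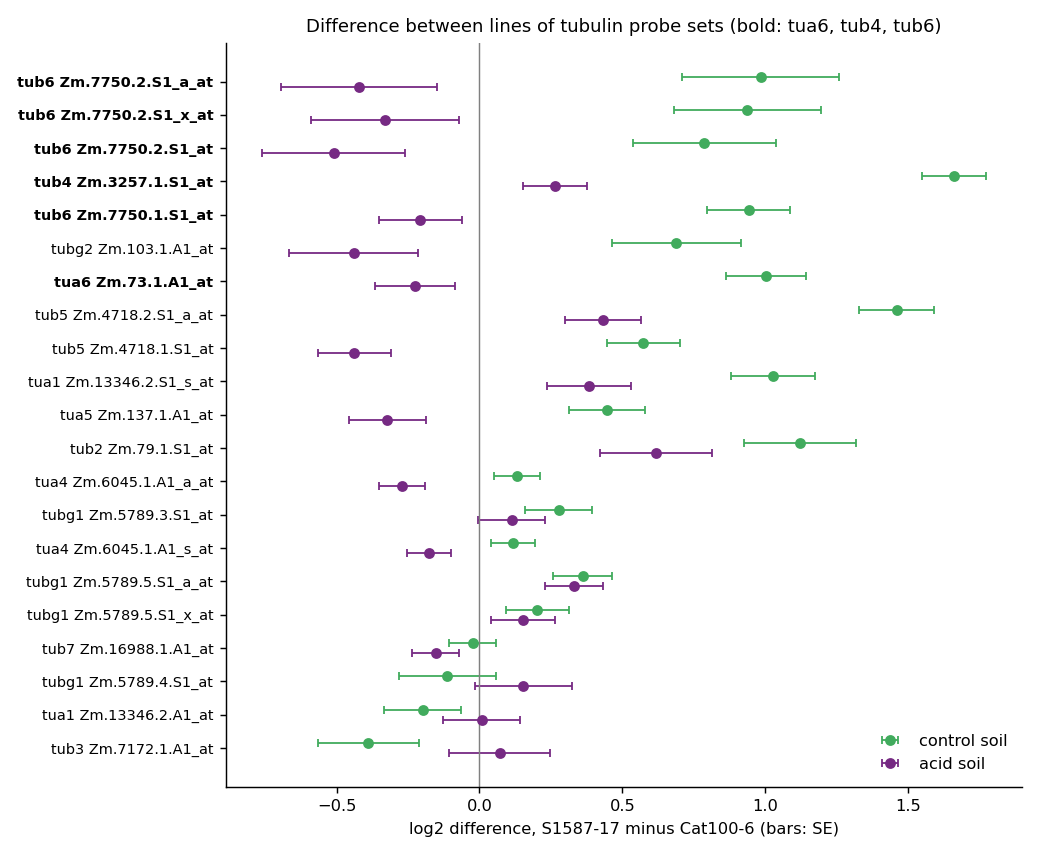
Log2 difference between the lines, S1587-17 minus Cat100-6, for all 21 tubulin probe sets in control soil (green) and acid soil (purple), with SE; bold labels mark tua6, tub4 and tub6. For these genes the green points lie at 0.79 to 1.66 and the purple points at -0.51 to 0.27.

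On the deposited scale the order of the 4 group means was as follows. Cat100-6 in control soil was lowest for all 6 probe sets. For tua6 and tub6 the highest mean was that of Cat100-6 in acid soil, with the S1587-17 groups, whose arrays overlapped each other, in between. The arrays of Cat100-6 in acid soil overlapped those of S1587-17 in control soil for tua6 and for the a_at and x_at probe sets of tub6, so the upper groups had no clear order there. For tub4 the mean of Cat100-6 in acid soil came second from the bottom, below the S1587-17 groups, which overlapped each other and not Cat100-6. With the spiked controls set equal, S1587-17 in acid soil was below Cat100-6 in acid soil for all 6 probe sets, with differences of -0.96 to -0.19. Whether the order differed between the genes was not tested.

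The difference between the soil responses of the lines, Cat100-6 minus S1587-17, was 1.23 ± 0.20 for tua6, 1.40 ± 0.16 for tub4 and 1.15 to 1.41 for tub6 (SE, log2 scale). The 6 were past the threshold, as were 14.7% of all probe sets in either direction and 8.76% with a positive difference. With any one of 10 of the 12 arrays left out, 3 of the 6 and 3.91% to 5.14% of all probe sets were past it with a positive difference. The 6 were past it without Cat100-6 acid soil replicate 3, as were 10.6% of all, and without S1587-17 control soil replicate 3, as were 20.6%. This contrast contains the Cat100-6 response that led to the genes, so nothing is read from these counts. Without S1587-17 control soil replicate 3 the tub6 differences were 1.34 to 1.82. As a description, the Pearson correlation over the 12 arrays was 0.933 to 0.997 between tub6 probe sets (6 pairs) and 0.706 to 0.977 between probe sets of different genes (9 pairs); these points share the 4 groups and the arrays.

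The remaining tubulin genes on the array were 9, with 15 probe sets, and they were tested in every comparison. In Cat100-6, 9 of these probe sets rose in acid soil, 1 fell and 5 did not pass, with a median log2 difference of 0.33 beside -0.14 over all probe sets. Of all probe sets 23.5% rose and 31.5% fell. The genes with the highest and the lowest value among these 9 tubulin genes are described first. The γ-tubulin gene tubg2, for a protein that starts new microtubules, rose by 1.24 ± 0.23 (SE, limma adjusted p = 0.00127), from 6.25, 5.71 and 6.00 to 7.08, 7.52 and 7.08. The β-tubulin gene tub3 was the only one that fell, by 0.96 ± 0.18 on the log2 scale (adjusted p = 0.00130), from 10.99, 11.15 and 11.24 to 10.19, 9.87 and 10.43. For both genes the arrays of the soils did not overlap. The fall of tub3 had the same direction but did not pass with the spiked controls set equal (-0.47, adjusted p = 0.0722).

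Among the other β-tubulins, tub5 rose at both of its probe sets, by 1.00 ± 0.13 (adjusted p = 0.000218) and 1.07 ± 0.13 (adjusted p = 0.00018), values next to those of tua6. The dim gene tub2 rose by 0.56 ± 0.20 (adjusted p = 0.0315). The bright gene tub7 had 12.35 ± 0.07 in control soil and 12.36 ± 0.01 in acid soil (SD, n = 3), a difference of 0.01 ± 0.08 (SE, adjusted p = 0.951). It was 0.50 with the spiked controls set equal, where it passed.

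Of the α-tubulins, tua1 rose by 0.85 ± 0.15 at its brighter probe set (adjusted p = 0.000987), whose suffix s_at marks probes shared between genes, whereas its dim one gave -0.30 ± 0.13 (adjusted p = 0.0807). Without S1587-17 control soil replicate 3, which enters only through the spread, the dim one passed as lower (adjusted p = 0.0398). The gene tua5 rose by 0.71 ± 0.13 (adjusted p = 0.0015). Among the α-tubulin probe sets that rose, those of tua4, the brightest tubulin signal, rose least. They rose by 0.43 ± 0.08 (adjusted p = 0.00132) and, at a probe set that is also s_at, by 0.27 ± 0.08 (adjusted p = 0.0135). The γ-tubulin gene tubg1 passed at 1 of its 4 probe sets, with 0.33 ± 0.12 (adjusted p = 0.0338).

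**Figure D4:**
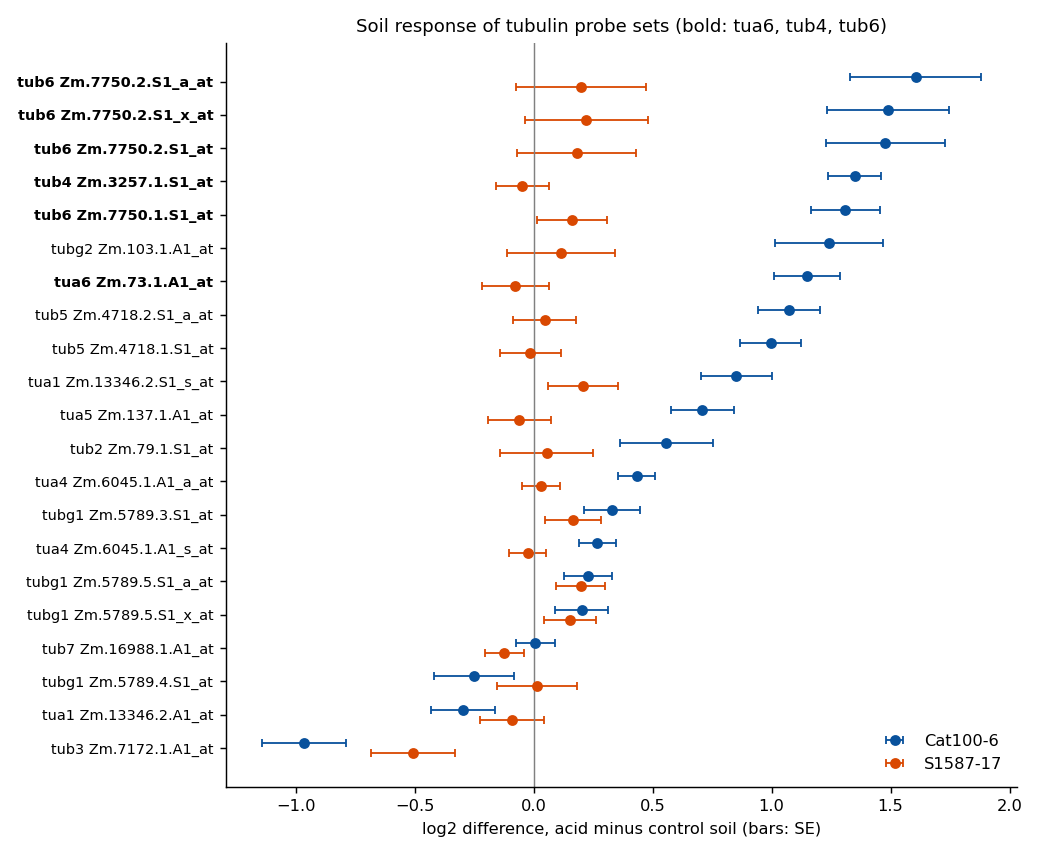
Log2 difference between acid and control soil for all 21 tubulin probe sets in Cat100-6 (blue) and S1587-17 (orange), with SE, ordered by the value in Cat100-6; bold labels mark tua6, tub4 and tub6. Values in Cat100-6 run from -0.96 for tub3 to 1.61 for tub6, and those in S1587-17 from -0.51 for tub3 to 0.22 for tub6.

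In S1587-17 none of the 15 other probe sets passed, and 1 had an unadjusted p below 0.05. This was tub3, at -0.51 ± 0.18 (SE, unadjusted p = 0.0152, limma adjusted p = 0.874), with 10.74, 10.53 and 10.94 in control soil and 10.53, 10.20 and 9.96 in acid soil. Its acid soil values were mostly the lower, but the groups met.

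Between the lines in control soil, 7 of the 15 were higher in S1587-17 and none lower in limma, while 9 had an unadjusted p below 0.05 in either direction. Of all probe sets 23.2% were higher and 28.2% lower. Without replicate 3 of the S1587-17 control group 9 were higher and 2 lower, the latter being tub3 with -0.49 ± 0.18 (adjusted p = 0.0376) and the dim probe set of tua1 with -0.32 ± 0.13 (adjusted p = 0.0471). In that fit 26.7% of all probe sets were higher and 34.6% lower. With all arrays the largest was the dimmer probe set of tub5 with 1.46 ± 0.13 (adjusted p = 8.11e-06), followed by tub2 with 1.12 ± 0.20 (adjusted p = 0.00069) and the brighter probe set of tua1 with 1.03 ± 0.15 (adjusted p = 0.000197). In acid soil 3 were higher and 2 lower, beside 10.6% and 13.3% of all probe sets. Without replicate 3 of the S1587-17 control group 4 were higher and 4 lower, beside 15.9% and 17.7% of all. The gains were the brighter probe set of tua1, higher with 0.38 ± 0.11 (adjusted p = 0.0240), and tua5 and tubg2, lower with -0.32 ± 0.10 (adjusted p = 0.0327) and -0.44 ± 0.16 (adjusted p = 0.0498). The probe sets of tub5 disagreed there, with 0.43 ± 0.13 at the dimmer (adjusted p = 0.0345) and -0.44 ± 0.13 at the brighter (adjusted p = 0.0281). With the spiked controls set equal the dimmer was at -0.021.

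Genes that work with or beside microtubules were described by lists, whose counts in Cat100-6 stand beside the 23.5% of all probe sets that rose and the 31.5% that fell. Kinesins, motors that move along microtubules, rose at 4 of 8 probe sets in Cat100-6 in acid soil, with a median of 1.14 over the list. Among those that rose were kin11, by 2.58 ± 0.48 (SE, limma adjusted p = 0.00149), and kin4, by 2.54 ± 0.59 (adjusted p = 0.00439). Arrays of the soils were apart at 5 probe sets with higher and 3 with lower values in acid soil, beside 68.6% of all in either direction. The summed kinesin signal was 2039 to 2276 in control soil and 2032 to 2275 in acid soil. In S1587-17 none passed, and none had an unadjusted p below 0.05 in limma. The difference between the soil responses passed at none of the 8 (lowest limma adjusted p = 0.0703), beside 14.7% of all probe sets. The list of the actin cytoskeleton, the other filament system, had 2 probe sets that rose and 4 that fell of 12, with a median of -0.04, shares close to those of all probe sets. Its brk1, a subunit of the complex that promotes actin branching, rose by 1.37 ± 0.14 (adjusted p = 5.67e-05). A myosin gene (LOC541763, synonym myo1), an actin motor, fell by 1.40 ± 0.23 on the log2 scale (adjusted p = 0.000733). Of 10 cellulose synthesis probe sets 1 rose and 4 fell, among them the cellulose synthase gene cesa7 by 1.16 ± 0.24 (adjusted p = 0.00268).

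Of 26 probe sets of DNA replication and cell division genes 13 rose, 4 fell and 9 did not pass in Cat100-6 in acid soil, with a median log2 difference of 1.00, among them cdc2, a kinase that drives the cell cycle, by 1.17 ± 0.22 (adjusted p = 0.00137). The retinoblastoma-related gene RBR1, which restrains entry into DNA synthesis, fell by 0.81 ± 0.13 at its dim probe set (adjusted p = 0.000672). That probe set had a mean of 4.96 over all arrays. The difference at the brighter RBR1 probe set, with a mean of 7.07, is not described here. In S1587-17 none of the 26 passed, and the difference was positive at 19 in each line. The difference between the soil responses passed at 1 of the 26, with a positive value, beside 8.76% of all probe sets. The median of the list was 5.75, 5.77 and 5.52 in control soil and 6.68, 7.27 and 6.66 in acid soil on the Cat100-6 arrays. On those of S1587-17 it was 6.62, 6.75 and 5.005 in control soil and 6.66, 6.69 and 6.77 in acid soil. The low control values of Cat100-6 and the single low array of S1587-17 stood in the same places as those of tub6. The summed signal of the list was 8314 to 8928 in control soil and 11121 to 15197 in acid soil in Cat100-6, and 2646 to 7729 and 6205 to 7600 in S1587-17, where the 2646 is the apart array. The sum includes 2 probe sets of his1 that differed by -6.61 and -7.64 in S1587-17 relative to Cat100-6 in control soil, and it runs against the medians between the lines. None of its probe sets is listed at 0, and the lowest value was 2.29 on the log2 scale. Leaf markers moved the other way in Cat100-6, with 11 of 14 probe sets lower and 1 higher, and a summed signal of 152044 to 152874 in control soil and 64753 to 116751 in acid soil. Both the 64753 and the 15197 above are from replicate 2 of Cat100-6 in acid soil, whose group-mates had leaf marker sums of 100583 and 116751. The root marker zrp4 fell by 1.81 ± 0.21 (adjusted p = 0.000151), and 6 of 16 seed marker probe sets fell and none rose, a share of falls near the 31.5% of all probe sets. The part of dividing, mature leaf or other cells in the tubulin differences was not tested.

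**Figure D5:**
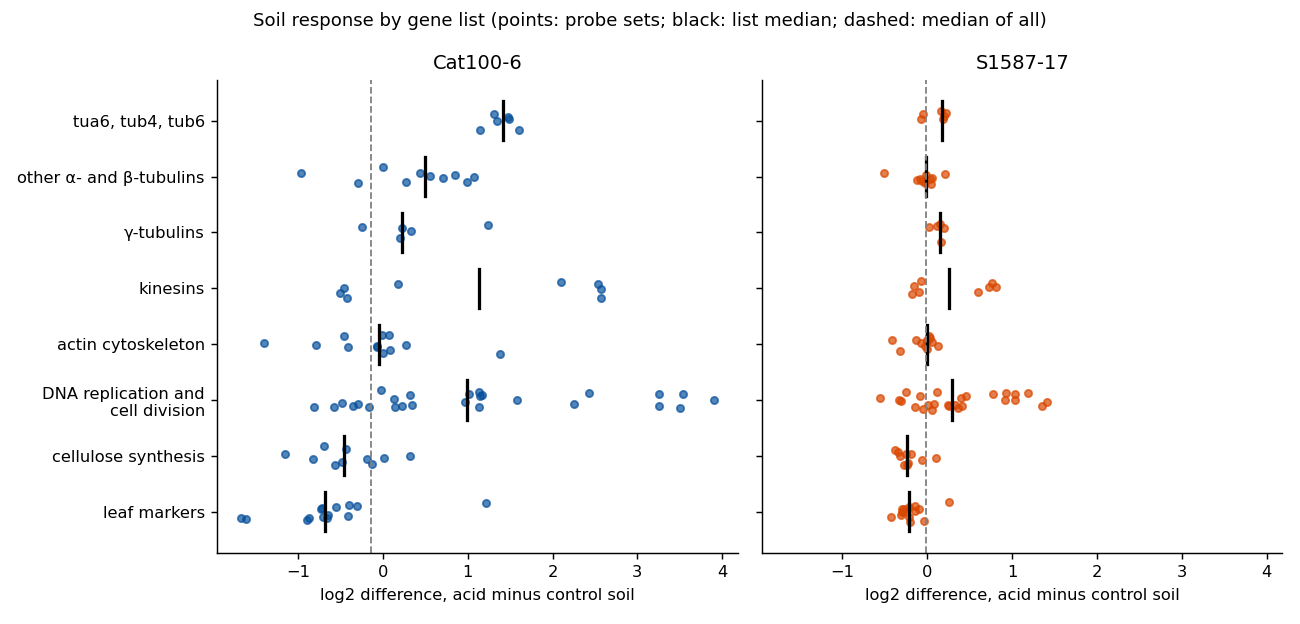
Log2 difference between acid and control soil by gene list in Cat100-6 (left) and S1587-17 (right), with 1 point per probe set, a black bar at the list's median and a dashed line at the median of all probe sets; the vertical scatter within a list has no meaning. In Cat100-6 the medians run from 1.41 for tua6, tub4 and tub6 to -0.68 for the leaf markers.

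The genes whose levels ran most like those of the 3 tubulins over the 12 arrays were picked by Pearson correlation among 1105 genes, as a description. For tua6 these were pdi6 (0.974) and pdi7 (0.967), both protein disulfide isomerases of the endoplasmic reticulum, and fae1 (0.967). For tub4 they were NIP1-1 (0.991), an aquaporin, LOC542189 (0.988) and ocl1 (0.984), a homeobox gene of the outer cell layer. For tub6 they were LOC541810 (0.989), por1 (0.980) and pdi7 (0.975). The mean of NIP1-1 was 8.89 and 10.94 in Cat100-6 in control and acid soil and 11.16 and 11.30 in S1587-17. As for tub4, both S1587-17 means were above both Cat100-6 means, but the S1587-17 means stood in the opposite order.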

How the data were processed

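Per the submitters' processing notes, the deposited log2 values were made by RMA, a method that subtracts background, aligns the arrays and merges the probes of each set. Its version is not stated in the labels, and it compresses differences between dim probe sets. Of 17734 probe sets, 113 controls were left out. A single platform symbol was held by 1452 tested probe sets, of which 1377 were matched to RefSeq; 1 had several and 16168 had none. tua4 was named by the platform only.

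One limma 3.58.1 model (R 4.3.3) held all 12 arrays and the 4 group means, leaving 8 residual degrees of freedom. P-values were adjusted by Benjamini-Hochberg over 17621 probe sets, with a threshold of 0.05. The fit was tested on simulated data. Members and lists were chosen with earlier results of these data known; the kinesin list was added from the symbol table. Named were all tubulin probe sets, up to 2 genes per list and comparison with the lowest p among those that passed with arrays apart, and for each member the 3 genes with the highest correlation; not all are described. Matches of 3 genes with another function than the list were left out.

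Alternatives left out the 40% dimmest probe sets, normalized by quantiles again, subtracted array medians, set 9 spiked hybridization controls equal, used a trended robust variance, array weights, only the groups compared or replicate blocks, and left out each array in turn. The precision is limited by the number of arrays. Same-numbered arrays of a line correlated in their deviations at -0.29 to 0.16 over 6 pairs, so the numbers were not taken to pair samples. Figures were drawn with matplotlib 3.10.9.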

Additional observations from a re-analysis of the deposited data

Results flagged for a closer look

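Of the tubulin genes other than tua6, tub4 and tub6, 5 probe sets differed between the lines in their response to acid soil by the test of the difference itself, Cat100-6 minus S1587-17 (limma, adjusted over all probe sets). Of all probe sets 14.7% passed this test, 8.76% of all with a positive difference. For the tubulins the difference on the log2 scale was 1.01 ± 0.18 (SE) for the brighter probe set of tub5 (adjusted p = 0.00766) and 1.03 ± 0.19 for its dimmer one (adjusted p = 0.00812). It was 1.13 ± 0.32 for tubg2 (adjusted p = 0.0398), 0.77 ± 0.19 for tua5 (adjusted p = 0.0253) and 0.40 ± 0.11 for the brighter probe set of tua4 (adjusted p = 0.0384). For each of these 5 the Cat100-6 arrays were higher in acid soil without overlap, while the S1587-17 arrays of both soils overlapped. Without S1587-17 control soil replicate 3 the values were 1.16, 1.09, 1.40, 0.91 and 0.41 in the same order, and tub2, at 0.50 with all arrays (adjusted p = 0.212), was 0.75 (adjusted p = 0.00957). The brighter probe set of tua1, at 0.64 with all arrays (adjusted p = 0.0587), was 0.80 (adjusted p = 0.00355). In that fit 44.9% of all probe sets passed, 20.6% of all with a positive difference. With each array left out in turn, 2 to 7 of these other tubulin probe sets passed with a positive difference.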

How the results depend on the processing

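The log2 differences of tua6, tub4 and tub6 between soils in Cat100-6 stayed at 1.09 to 1.69 with each array left out in turn, and those between lines in control soil at 0.56 to 1.74. In S1587-17 they ranged from -0.25 to 0.45, and the counts past the threshold stayed at 0. Of the 6, those lower in S1587-17 in acid soil, 0 with all arrays, numbered 4 with spiked controls set equal (36.0% of all probe sets), 4 with array weights (24.0%), 2 with only the groups compared (14.4%), and 0 to 3 with 1 array left out. Those whose responses differed between lines, 6 with all arrays, numbered 3 with the replicate block by number within line (4.71% of all) and 3 to 6 with 1 array left out. The comparisons between lines use Cat100-6 arrays, so nothing is read from their counts for these genes.

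For the other tubulin probe sets, the share of all probe sets in the same direction stands in brackets. The 1 that fell in Cat100-6 (31.5%) became 2 with array medians subtracted (41.5%) and 0 with spiked controls (5.96%). It became 3 with array weights (40.0%), 2 with only the groups compared (32.0%) and 1 to 2 with 1 array left out (24.1% to 36.2%). The 7 higher in S1587-17 in control soil (23.2%) became 3 with spiked controls (16.1%) and 4 to 9 with 1 array left out (19.8% to 26.7%). None lower (28.2%) became 1 with a second quantile normalization (28.7%), 1 with array weights (35.6%) and 0 to 2 with 1 array left out (22.4% to 34.6%). In acid soil the 3 higher (10.6%) became 0 with spiked controls (3.00%) and 0 to 4 with 1 array left out (7.11% to 15.9%). The 2 lower (13.3%) became 1 with quantile normalization (13.1%) and 0 with medians subtracted (11.2%). They became 6 with spiked controls (36.0%) and 0 to 4 with 1 array left out (9.35% to 17.7%). The 5 whose responses differed (8.76%) became 8 with array weights (21.5%), 3 with the replicate block within line (4.71%) and 2 to 7 with 1 array left out (3.91% to 20.6%). Of the 3 that had passed as higher in acid soil, the dimmer probe set of tub5 (-0.021) and the second-brightest of tubg1 (-0.12) turned sign with spiked controls. Probe sets that had not passed turned sign there too, among them tub3, from 0.07 to -0.38, and the dim one of tua1, from 0.008 to -0.45. The spiked-control setting shifts every probe set of an array alike, and the cause of the other changes was not tested. Arrays number 3 per group, and differences of dim probe sets such as tub2 and tubg1 are compressed.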
